A study of Mus musculus with 2 samples.

Results

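Keratins are the structural proteins of the intermediate filaments of epithelial cells. A gene was counted as a keratin when its symbol was Krt, a number and at most 1 further letter, which gave 53 of the 32285 genes listed, 28 of type I and 25 of type II. Cells came from the prostate of wild-type male C57BL6 mice and were profiled in 2 single-cell libraries that count the 3′ ends of mRNA. The ventral library holds dissociated ventral lobes (kit version 2), and the proximal library holds the proximal and periurethral region near the urethra (kit version 3). No treatment is given for either, and the animals' age and number are not given in the sources used here. Each region is 1 library, so no test between conditions was possible, and the effects of region and of kit cannot be told apart.

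Keratin filaments are built from pairs, in which a type I (acidic) keratin joins a type II (basic) keratin, and an unpaired chain is unstable in cells. Textbook pairs are Krt5 with Krt14 or Krt15 in the basal layer of stratified and glandular epithelia, Krt8 with Krt18 or Krt19 in simple and luminal epithelia, Krt4 with Krt13 in wet stratified epithelia, and Krt6a with Krt16 or Krt17 in wounded or fast-growing epithelia. In the prostate gland, basal cells lie on the basement membrane below the luminal cells, and Krt5 and Krt8 are the usual stains for the 2 layers.

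The genes lie in 2 clusters: 27 of the 28 type I genes are on chromosome 11, while Krt18 lies on chromosome 15 beside the 25 type II genes (RefSeq, GRCm38.p6, the build of mm10). Krt8 and its partner Krt18 are neighbours, with 23873 bases between their start sites. The promoter windows of 5 keratins that carry the main patterns are shown, 250 bases before to 50 after the start of the gene: Krt5 for the basal set, Krt7 and Krt23 for the proximal luminal set, and Krt8 and Krt18 as the neighbouring pair. They lie at chr15:101712856-101713155 (minus strand), chr15:101412153-101412452 (plus), chr11:99493071-99493370 (minus), chr15:102004293-102004592 (minus) and chr15:102027966-102028265 (plus). Sequences are from RefSeq, which gave a window for 11 of the 21 keratins described here.
Krt5: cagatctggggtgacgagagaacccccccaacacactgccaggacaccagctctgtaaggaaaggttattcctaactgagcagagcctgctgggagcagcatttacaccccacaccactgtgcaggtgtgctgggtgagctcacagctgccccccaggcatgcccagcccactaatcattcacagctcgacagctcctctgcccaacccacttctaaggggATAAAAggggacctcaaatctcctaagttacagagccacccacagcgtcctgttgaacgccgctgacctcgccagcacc
Krt7: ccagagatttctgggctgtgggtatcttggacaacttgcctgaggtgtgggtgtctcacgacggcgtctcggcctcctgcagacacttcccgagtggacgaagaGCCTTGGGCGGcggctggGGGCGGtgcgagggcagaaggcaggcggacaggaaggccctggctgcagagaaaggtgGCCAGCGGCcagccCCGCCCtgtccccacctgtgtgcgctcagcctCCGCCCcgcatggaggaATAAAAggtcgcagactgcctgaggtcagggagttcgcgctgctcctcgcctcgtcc
Krt23: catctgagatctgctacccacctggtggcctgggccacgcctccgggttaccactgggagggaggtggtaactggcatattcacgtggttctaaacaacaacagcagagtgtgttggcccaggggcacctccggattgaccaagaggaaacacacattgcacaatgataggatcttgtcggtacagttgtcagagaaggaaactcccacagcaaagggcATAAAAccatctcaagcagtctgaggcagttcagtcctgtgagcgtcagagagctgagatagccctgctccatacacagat
Krt8: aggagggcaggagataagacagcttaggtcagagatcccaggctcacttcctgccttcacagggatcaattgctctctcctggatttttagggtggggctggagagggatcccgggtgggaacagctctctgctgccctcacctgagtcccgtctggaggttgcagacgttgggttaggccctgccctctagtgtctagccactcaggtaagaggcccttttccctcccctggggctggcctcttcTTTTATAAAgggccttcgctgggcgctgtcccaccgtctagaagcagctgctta
Krt18: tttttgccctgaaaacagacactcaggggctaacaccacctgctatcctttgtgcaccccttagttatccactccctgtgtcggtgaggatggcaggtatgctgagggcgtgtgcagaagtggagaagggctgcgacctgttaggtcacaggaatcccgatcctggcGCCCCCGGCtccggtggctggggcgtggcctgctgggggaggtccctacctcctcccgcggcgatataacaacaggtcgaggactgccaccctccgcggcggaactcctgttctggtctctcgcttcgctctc
Capitals mark matches on either strand to any of 5 motifs. The first motif, of the TATA box, is TATAAA. Its variant ATAAAA was added after these windows had been looked at. The third motif, of the factor Sp1, is GGGCGG. Those of AP-1 and AP-2, in which N is any base, are written TGANTCA for the former and GCCNNNGGC for the latter. Krt5 and Krt23 hold ATAAAA on the gene's own strand, starting 29 and 31 bases before the start. Among all 32851 windows of this length, 1.738% hold ATAAAA on that strand at 20 to 40 bases before the start. Krt7 holds 4 matches to the Sp1 motif and 2 to the AP-2 motif, of which 1 pair overlaps, and 1 to ATAAAA at 7 bases before the start. In Krt8 the TATA matches fall on both strands of the same stretch at the start, and Krt18 holds 1 match to the AP-2 motif. Of all windows, 13.62% hold TATAAA, 18.47% ATAAAA, 35.66% the Sp1 motif, 7.808% the AP-1 motif and 16.59% the AP-2 motif. These are matches of letters only.

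The ventral library held 2221 barcodes with 49356586 UMIs (unique molecular identifiers, each counted as 1 mRNA molecule), and the proximal library 4344 with 97817603. After filtering, 1988 and 3705 cells were kept, and the libraries shared 0 barcodes. Cells were grouped in each library without keratin genes, and clusters were named from markers that include no keratin. Basal-like cells numbered 142 (ventral) and 685 (proximal), proximal luminal-like cells 82 and 771, and secretory luminal-like cells 1491 and 654. A cluster's score for a class is the mean excess of the class's markers over the other clusters. The ventral basal-like cluster scored 1.07 as basal and 0.641 as fibroblast, and Sparc and Dcn were among its leading genes. The proximal basal-like clusters scored 0.148 and 0.161 as fibroblast. No ventral cluster was named fibroblast, and the part of stromal RNA in the ventral basal-like cells was not tested. Of the proximal library, 2 further clusters had 1 or more markers of the periurethral type among their leading genes. One of 235 cells, led by Clca1, Upk3a, Ly6d and Upk2, is called periurethral-type (luminal) here. One of 240 cells, led by Grp, Aqp3 and Ivl and rich in basal markers, is called periurethral-type (basal), and Aqp3 is its only such marker. Its scores were 0.518 as basal, 0.451 as proximal luminal and 0.305 as periurethral type. The luminal cluster scored 1.05 as proximal luminal and 0.524 as periurethral type, so the periurethral type was the best class of neither. All 9 basal markers had UMIs in the basal-like cells and all 8 proximal luminal markers in the proximal luminal-like cells of both libraries, while Pate4, a secretory marker, stood at 0 in ventral secretory luminal-like cells. The doublet caller marked 11 cells in both libraries together and has not worked, so most doublets are likely still among the cells. Secretory RNA was spread unevenly: the 8 secretory markers summed to 22965 UMIs for each 1000000 UMIs of the class (CPM) in ventral basal-like cells and 142124 in ventral proximal luminal-like cells, against 2968 and 1758 in the proximal library. Keratin values without the cells that held most of it, with 5% of free RNA subtracted, or without the most abundant genes are given where they change a call. A cluster of 218 ventral cells and 2 of 405 proximal cells were left without a name, because their leading genes went against their best class or their UMI counts were low. In the epithelial classes, median UMIs per cell ran from 4961 in ventral basal-like to 51896 in proximal secretory luminal-like cells.

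Of the 53 keratins, 29 had UMIs in kept ventral cells and 52 in kept proximal cells, and Krt71 had none in either. Values are given for the 21 with at least 100 UMIs in a library or at least 50 CPM in a class, 9 of type I and 12 of type II. The other 32 had at most 29 UMIs among ventral and 90 among proximal cells and reached at most 7.32 CPM in any class. A level is a gene's sum of UMIs over the cells of a class, in CPM. Since each molecule is counted once at its end, levels were compared between genes without a correction for length. Ranges in parentheses are exact 95% intervals for counting error only, and they hold no spread between animals.

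**Figure D1:**
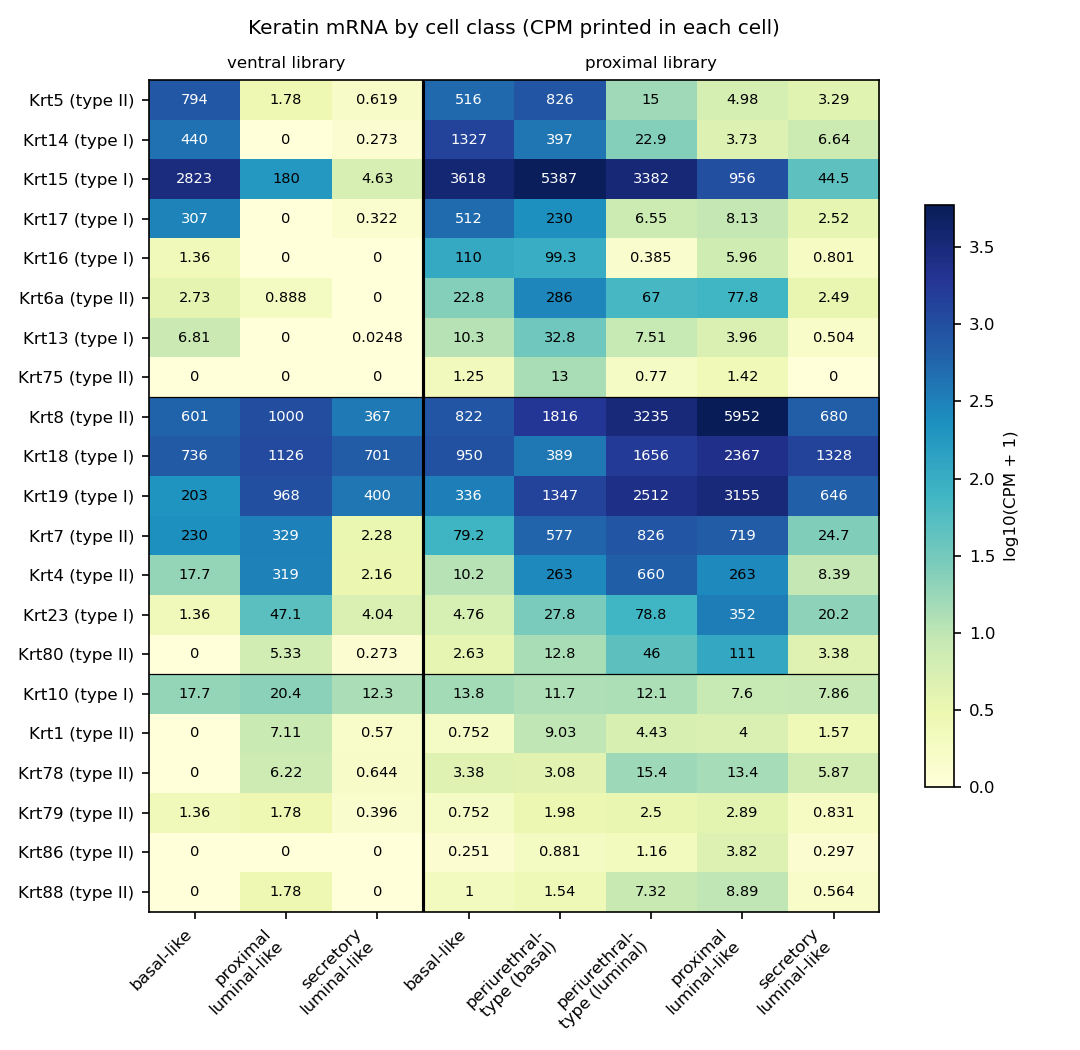
Levels of the 21 described keratins (rows) in the 8 class and library combinations (columns), printed as CPM and coloured by log10(CPM + 1). Krt5, Krt14 and Krt17 are high in the basal-like columns, Krt8, Krt18 and Krt19 are found in all, Krt7 and Krt4 are high in the proximal luminal-like and periurethral-type columns, Krt7 also in ventral basal-like cells (230.3 CPM), and Krt23 and Krt80 are highest in the proximal luminal-like column of the proximal library.

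Keratin mRNA made up 1.40% of all UMIs in proximal luminal-like cells of the proximal library, 1.26% in periurethral-type (luminal), 1.17% in periurethral-type (basal), 0.835% in basal-like and 0.279% in secretory luminal-like cells. In the ventral library the shares were 0.619% in basal-like, 0.402% in proximal luminal-like and 0.150% in secretory luminal-like cells. Secretory luminal-like cells thus had the lowest share of the epithelial classes in both libraries, which held at 0.299% and 0.388% when genes over 1% of UMIs were left out. Of the non-epithelial cells, macrophage-like cells stood at 0.0503% and 0.0674%, proximal fibroblast-like cells at 0.0787%, ventral T or NK-like cells at 0.145% and proximal endothelial-like cells at 0.156%. In the T or NK-like cells 36.1% of UMIs were Sbp and Spink1, the major secretory transcripts of the ventral lobe. Without the 14 cells that held over 5% of them, the keratin share was 0.00939%. Type I and type II mRNA were not equal in most classes. Type II made up 51.1% (50.9 to 51.2) of keratin UMIs in proximal luminal-like cells of the proximal library, but 17.5% (17.2 to 17.8) in basal-like and 26.2% (26.0 to 26.5) in secretory luminal-like cells there. The ventral shares were 41.7% (40.3 to 43.2), 26.6% (25.3 to 27.9) and 25.02% (24.7 to 25.4) in the same order. In periurethral-type cells the share was 38.9% (38.5 to 39.2) for the luminal and 32.5% (32.1 to 32.9) for the basal cluster.

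The gene behind the excess of type I differed by class. Krt15 alone was 45.6% of keratin UMIs in ventral and 43.3% in proximal basal-like cells, and 45.9% in periurethral-type (basal) cells. In secretory luminal-like cells it was Krt18, with 46.8% and 47.6%. Krt8 was 42.4% of keratin UMIs in proximal luminal-like cells of the proximal library and 24.9% in those of the ventral library.

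**Figure D2:**
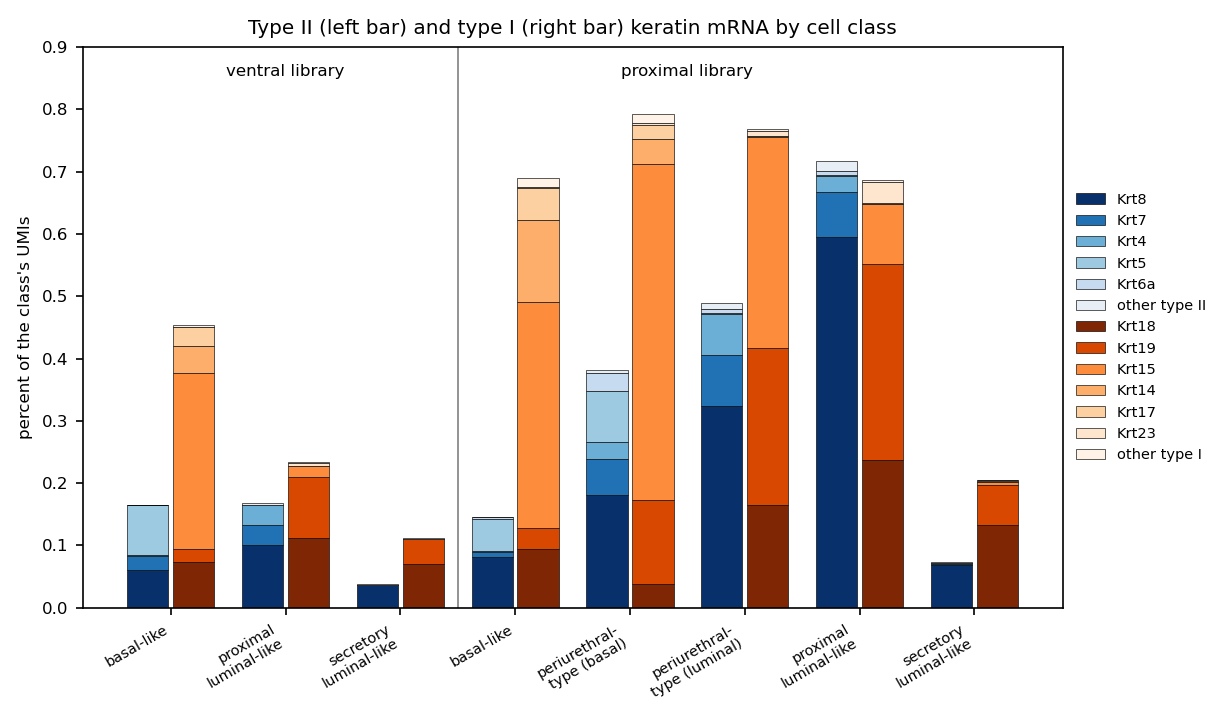
Type II (left bar, blue) and type I (right bar, orange) keratin mRNA as percent of each class's UMIs, from 0, split by gene, for the ventral library at the left and the proximal one at the right. The right bar is the taller in 7 of 8 classes, and the proximal luminal-like cells of the proximal library, at 51.1% type II, are the exception.

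Krt5, Krt14, Krt15 and Krt17 set basal-like cells apart from secretory luminal-like cells in both libraries. A keratin was counted as different when the ratio of (CPM + 5) was at least 4, among genes with at least 20 UMIs in the 2 classes. In the ventral library 5 of 14 tested keratins were higher in basal-like than in secretory luminal-like cells (Krt5, Krt7, Krt14, Krt15 and Krt17), against 5.52% of all genes tested, and 0 were lower, against 1.37%. In the proximal library 5 of 21 were higher (Krt5, Krt14, Krt15, Krt16 and Krt17), against 4.42% of all genes, and 0 were lower, against 1.93%. The median log2 ratio of (CPM + 5) over tested keratins was 0.55 and 0.27, against 0.35 and 0.08 over all genes tested. The count in the proximal library was 8 at a finer clustering resolution of 2 or with cells named one by one.

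Krt5, the type II keratin of basal cells, stood at 794 CPM (731 to 862) in ventral basal-like cells, 1.78 in proximal luminal-like and 0.619 in secretory luminal-like cells. Basal-like cells of the proximal library had 516 CPM (499.9 to 532), beside 4.98 in proximal and 3.29 in secretory luminal-like cells. Basal-like cells were thus 1282-fold (860 to 1998) and 157-fold (129.7 to 191) higher than secretory luminal-like cells. Such ratios depend on the total: with genes over 1% of UMIs left out (chosen after seeing the data) the ventral ratio of Krt5 was 690-fold and the proximal one 120.5-fold. The same change divides every CPM ratio over secretory luminal-like cells by 1.86 (basal-like) and 1.64 (proximal luminal-like) in the ventral library, and by 1.30 and 1.30 in the proximal one. Macrophage-like cells of the proximal library, which should lack Krt5, had 4.06 CPM (1.11 to 10.4), and its levels in both luminal classes lay within that range. A Krt5 UMI was found in 12.7% of secretory luminal-like cells (median 51896 UMIs) and 5.06% of macrophage-like cells (median 11922). After thinning to 1000 UMIs a cell, the shares were 0.153% and 0% (0 to 4.62), against 35.3% (31.7 to 39.0) of basal-like cells (unthinned 90.9%) and 49.6% (41.1 to 58.2) of ventral basal-like cells (88.0%).

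Krt14, a type I partner of Krt5, stood at 440.1 CPM (393 to 491) in ventral and 1327 CPM (1302 to 1353) in proximal basal-like cells. It had 0 UMIs in ventral proximal luminal-like cells, which allows up to 2.66 CPM, so basal-like cells were at least 165-fold higher. Krt17, a type I keratin also induced by injury, followed the same order, with 307 CPM (268 to 349) and 512 CPM (497 to 528) in basal-like cells and 0 UMIs in ventral proximal luminal-like cells (at least 115-fold). In the proximal library the basal-like cells exceeded the proximal luminal-like cells 356-fold (287 to 446) in Krt14 and 63.0-fold (54.3 to 73.5) in Krt17. After thinning, 22.7% (16.1 to 30.5) of basal-like cells had a Krt14 UMI in the ventral library and 53.3% (49.5 to 57.1) in the proximal one, against 0% (0 to 11.6) and 1.28% (0.0325 to 6.94) of macrophage-like cells. A large part of basal-like cells thus gave no Krt14 UMI at that depth, while unthinned 50.7% and 86.9% of them had one.

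Krt15 had the widest reach of the 4. It was the highest keratin of basal-like cells, with 2823 CPM (2703 to 2948) (ventral) and 3618 CPM (3577 to 3660.3) (proximal). Unlike Krt5 and Krt14 it was also found in luminal cells of the proximal type, at 180.3 CPM (156 to 207) in ventral and 956 CPM (943 to 969) in proximal cells. Among the 82 ventral cells, 32.9% had a Krt15 UMI and 1 cell gave 21.7% of them. Secretory luminal-like cells had 4.63 CPM (3.99 to 5.35) and 44.5 CPM (42.2 to 46.8), and macrophage-like cells 5.78 and 28.4 CPM (18.9 to 41.1), while proximal fibroblast-like cells reached 125 CPM (116 to 135), above the secretory level. In the ventral library basal-like cells exceeded proximal luminal-like cells 15.7-fold (13.6 to 18.2), and in the proximal library 3.79-fold (3.72 to 3.85), which did not reach the 4-fold limit.

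**Figure D3:**
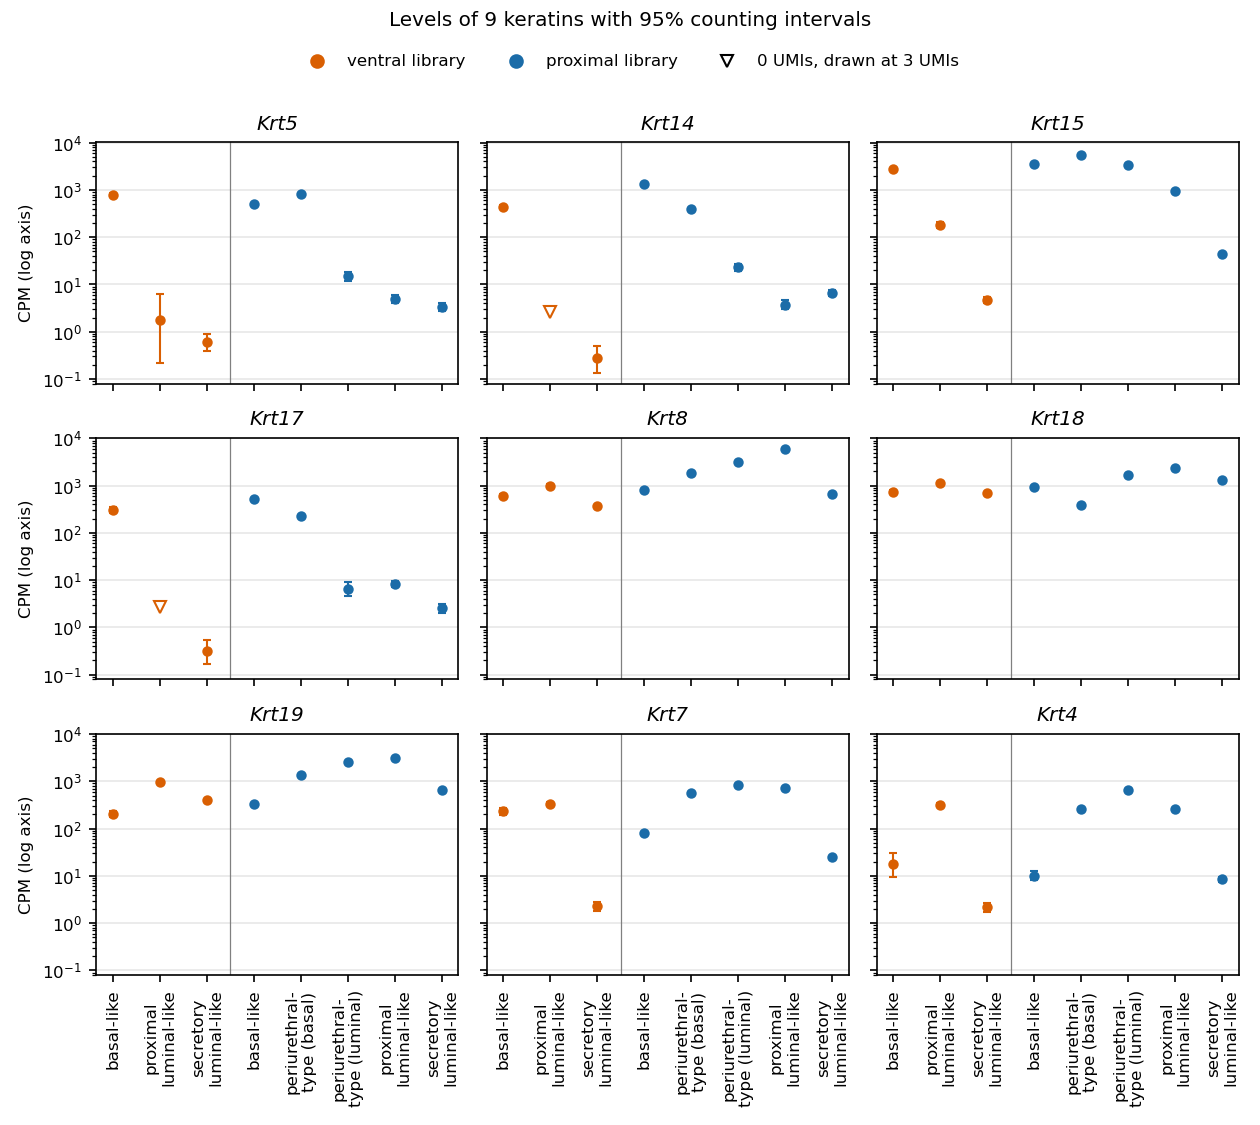
Levels of 9 keratins in CPM on a log axis by class (ventral library orange, proximal library blue), with exact 95% counting intervals as bars and a count of 0 drawn as an open triangle at 3 UMIs. Krt5, Krt14 and Krt17 lie far higher in basal-like cells than in proximal and secretory luminal-like cells, while Krt15 stands at 956 CPM in proximal luminal-like cells of the proximal library.

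Another set of keratins set the proximal type of luminal cell apart from the secretory type. In the ventral library 4 of 12 tested keratins were at least 4-fold higher in them (Krt4, Krt7, Krt15 and Krt23), against 2.92% of all genes, and 0 were lower, against 0.0715%. Among proximal cells 8 of 27 were higher (Krt4, Krt6a, Krt7, Krt8, Krt15, Krt19, Krt23 and Krt80), against 3.18%, and 0 were lower, against 1.18%. The median log2 ratio of tested keratins was 1.19 and 0.74, against 0.51 and 0.05 over all genes.

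Krt7, a type II keratin of ducts and transitional epithelium, separated the luminal classes of the ventral library, with 329 CPM (296 to 364) in the proximal and 2.28 CPM (1.84 to 2.80) in the secretory type. The proximal levels were 719 CPM (708 to 730) and 24.7 CPM (23.1 to 26.5). The ratios were 144-fold (114 to 183) and 29.1-fold (27.1 to 31.2). Krt4, the type II keratin of the lining of mouth and oesophagus, showed the same contrast, with 319 CPM (287 to 354) against 2.16 in the ventral and 263 CPM (257 to 270.1) against 8.39 in the proximal library. After thinning, 29.3% (19.7 to 40.4) of proximal luminal-like cells from the ventral library and 20.1% (17.3 to 23.1) from the other kept a Krt4 UMI (unthinned 61.0% and 81.6%), against 0% (0 to 11.6) and 0% (0 to 4.62) of macrophage-like cells. Its textbook partner Krt13 was low in these cells, with 0 UMIs in the ventral library. The proximal cells had 3.96 CPM (3.18 to 4.87), or 66.6 (54.0 to 83.0) Krt4 UMIs for each Krt13 UMI.

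Krt23, a type I keratin of glandular epithelia, was highest in proximal luminal-like cells of the proximal library, at 352 CPM (344 to 360), with 20.2 in the secretory class and 4.76 in the basal one. Its ventral levels were 47.1 CPM (35.3 to 61.6), 4.04 and 1.36. With cells named one by one, the ventral log2 ratio of Krt23 over secretory luminal-like cells was 1.87, under the limit. Krt80, a type II keratin of many epithelia, was 111 CPM (107 to 116) in proximal luminal-like cells of the proximal library, 32.9-fold (27.2 to 40.0) above secretory luminal-like cells, but rested on 6 UMIs in the ventral class. The luminal side of the gland was therefore not uniform in keratin mRNA in either library.

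Basal-like and proximal luminal-like cells differed in both directions. In the ventral library 4 of 11 tested keratins were higher in basal-like cells (Krt5, Krt14, Krt15 and Krt17), against 3.69% of all genes, and 3 were lower (Krt4, Krt19 and Krt23), against 5.5%. The proximal library gave 4 of 29 that were higher (Krt5, Krt14, Krt16 and Krt17), against 1.82%, and 6 were lower (Krt4, Krt7, Krt8, Krt19, Krt23 and Krt80), against 1.57%. The median log2 ratio was -0.50 and -0.23 over tested keratins and -0.17 and 0.01 over all genes. With cells named one by one by their marker scores, the ventral log2 ratios of Krt19 and Krt23 were -0.93 and -1.76 and the proximal ratio of Krt7 -1.92, all within the limit, and 1 of the 3 lower ventral keratins remained.

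Krt8, Krt18 and Krt19, the keratins of simple epithelia, had UMIs in every epithelial class, basal-like cells included. In the ventral library the basal-like, proximal and secretory luminal-like cells had Krt8 at 601 CPM (546 to 659.7), 1000.1 CPM (943 to 1060.3) and 367 CPM (361 to 373). The same classes of the proximal library had 822 CPM (802 to 842), 5952 CPM (5919.9 to 5984) and 679.8 CPM (671 to 689). The order of basal-like and secretory luminal-like cells rested on the total: on the CPM scale Krt8 was 1.64-fold (1.49 to 1.80) and 1.21-fold (1.18 to 1.24) higher in basal-like cells, both under the 4-fold limit. Per 1000000 UMIs of the genes that hold at most 1% of a class (chosen after seeing the data), ventral basal-like cells had 646 and ventral secretory cells 734, against 878 and 944 for the proximal classes, so the order turned in both.

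Non-epithelial cells, which should lack Krt8, were not free of it. Macrophage-like cells had 144 CPM (93.5 to 213) (ventral) and 234 CPM (204 to 266) (proximal). The highest such levels were 523 CPM (452 to 602) in the 25 ventral T or NK-like cells and 613 CPM (559.9 to 669) in the 61 proximal endothelial-like cells, of which 1 cell gave 56.4%. The ventral T or NK level exceeded that of secretory luminal-like cells and its interval overlapped that of basal-like cells, and the endothelial level lay under both proximal classes. A Krt8 UMI was found in 10% and 53.2% of macrophage-like cells (median 3751 and 11922 UMIs), 52% of T or NK-like cells (7837) and 59.0% of endothelial-like cells (10500). After thinning, the ventral shares were 3.33% (0.0844 to 17.2) in macrophage-like, 32% (14.9 to 53.5) in T or NK-like, 29.8% (22.4 to 38.1) in basal-like and 30.9% (28.5 to 33.3) in secretory luminal-like cells. Thinning was a single random draw at each depth. At 2000 UMIs, 94 of 138 ventral basal-like and 756 of 1484 ventral secretory luminal-like cells had Krt8, so the near-equal shares of these classes did not hold. The proximal shares were 8.97% (3.68 to 17.6) in macrophage-like, 16.7% (8.29 to 28.5) in endothelial-like, 45.1% (41.3 to 48.9) in basal-like and 44.7% (40.9 to 48.6) in secretory luminal-like cells. Secretory RNA moved with the ventral background: Sbp and Spink1 made up 36.1% of UMIs in T or NK-like, 21.1% in macrophage-like and 2.22% in basal-like cells, and 14, 2 and 5 cells of these classes held over 5%. Without those cells Krt8 had 0 UMIs in the 11 remaining T or NK-like cells (interval up to 69.3 CPM) and stood at 9.67 CPM (0.245 to 53.9) in 28 macrophage-like cells, against 597 CPM (542 to 657) in 137 basal-like cells.

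Krt18 and Krt19 also had UMIs in non-epithelial cells. Ventral T or NK-like cells had 542 CPM (469 to 622) of Krt18 and 355 CPM (297 to 421) of Krt19, and macrophage-like cells 179 CPM (122 to 254) and 156 CPM (103 to 227). The Krt19 of ventral basal-like cells, 203 CPM (172 to 238), thus lay below the former and overlapped the latter. Without cells over 5% Sbp and Spink1, Krt19 stood at 18.8 CPM (0.475 to 105) in T or NK-like and 192 CPM (161 to 228) in basal-like cells and had 0 UMIs in macrophage-like cells. Proximal endothelial-like cells had 293 CPM (257 to 333) of Krt19, of which 1 cell gave 46.0%, and that interval overlapped the one of proximal basal-like cells.

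Krt18, the type I partner of Krt8, stood at 736 CPM (675 to 801), 1126 CPM (1065 to 1190) and 701 CPM (693 to 709.7) in basal-like, proximal luminal-like and secretory luminal-like cells of the ventral library. The proximal library gave 950 CPM (929 to 972), 2367 CPM (2347 to 2387) and 1328 CPM (1316 to 1340.3). It spanned less than Krt8 did: the proximal luminal-like cells of the proximal library exceeded the secretory luminal-like cells 1.78-fold (1.76 to 1.80) in Krt18 and 8.76-fold (8.63 to 8.88) in Krt8. Krt19, the short type I keratin of ducts, stood at 203 CPM (172 to 238), 968 CPM (912 to 1027) and 399.8 CPM (394 to 406) in the ventral library. The proximal levels were 336 CPM (323 to 349), 3155 CPM (3132 to 3178) and 646 CPM (638 to 655). Summed over each class, Krt19 was lower in basal-like cells than in either luminal class, 4.77-fold (4.01 to 5.70) and 9.40-fold (9.04 to 9.77) below proximal luminal-like cells. By cluster the order against secretory luminal-like cells did not hold throughout in the proximal library: the 4 secretory clusters ran from 236 CPM (227 to 246) to 1283 CPM (1219 to 1351), and the 2 basal-like clusters had 178 CPM (161 to 195) and 403 CPM (386 to 419.9). Its 4.88-fold (4.81 to 4.96) excess over secretory luminal-like cells in the proximal library was under the limit when genes with over 1% of UMIs were left out of the totals (chosen after seeing the data), at a log2 ratio of 1.89.

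The periurethral-type clusters mixed these sets. In periurethral-type (luminal) cells 0 of 26 tested keratins were at least 4-fold higher than in proximal luminal-like cells, against 0.0969% of all genes. The count of higher keratins was thus near the share of all genes and says nothing particular about keratins. Lower was 1 (Krt23), against 0.187%. Krt23 stood at 78.8 CPM (71.3 to 86.8), 4.47-fold (4.05 to 4.95) below proximal luminal-like cells. The count of higher keratins moved with the cell filter: 7 were higher when cells had at most 5% mitochondrial UMIs. That filter also changed the clustering, and the class held 164 cells. The share of all genes under that filter was not recorded. Krt23 was within the limit when unnamed clusters joined their best class (log2 ratio -1.80) and when cells were named one by one (-1.41). Below that limit, Krt15 was 3.54-fold (3.47 to 3.61) higher at 3382 CPM (3332 to 3432), and Krt4 2.51-fold (2.40 to 2.61) higher at 659.8 CPM (638 to 682). Krt8 was 1.84-fold (1.81 to 1.87) lower at 3235 CPM (3186 to 3284). Krt14 reached 22.9 CPM (19.0 to 27.4), of which 1 cell gave 47.9%. That is under 55.2 CPM, the highest upper counting bound of Krt14 in the non-epithelial classes of this library.

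Periurethral-type (basal) cells carried both basal and luminal keratins. In them 3 of 19 tested keratins were at least 4-fold higher than in basal-like cells (Krt4, Krt6a and Krt7), against 1.01% of all genes, and 0 were lower, against 0.673%. The median log2 ratio over tested keratins was 1.14, against -0.11 over all genes. Krt5 stood at 826 CPM (799.6 to 853) and Krt15 at 5387 CPM (5319.9 to 5455), which were 1.60-fold (1.53 to 1.67) and 1.49-fold (1.46 to 1.51) above basal-like cells. Krt14 was 3.35-fold (3.18 to 3.52) lower at 397 CPM (378 to 415), and Krt17 2.23-fold (2.08 to 2.38) lower. On the luminal side, Krt7 was 7.28-fold (6.67 to 7.95) higher at 577 CPM (555 to 599), Krt4 25.9-fold (20.7 to 32.9) higher at 263 CPM (249 to 279), and Krt19 4.01-fold (3.83 to 4.20) higher on the CPM scale at 1347 CPM (1313 to 1381).

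Krt18 went the other way in these cells. It stood at 389 CPM (371 to 408), 2.44-fold (2.32 to 2.57) below basal-like cells, while Krt8 was 2.21-fold (2.14 to 2.28) above them at 1816 CPM (1777 to 1856). After thinning, Krt18 was found in 15.8% (11.5 to 21.1) of periurethral-type (basal) cells and 50.5% (46.7 to 54.3) of basal-like cells, and Krt8 in 51.2% (44.7 to 57.7) and 45.1% (41.3 to 48.9). Endothelial-like cells gave 6.67% (1.85 to 16.2) for Krt18 at the same depth and 437 CPM (393 to 485) summed, of which 1 cell gave 62.0%. The summed Krt18 level of periurethral-type (basal) cells was thus no higher than that of a class that should lack it, and the intervals of the shares overlapped. Unthinned, 61.2% of the periurethral-type (basal) cells had a Krt18 UMI and 90.4% a Krt8 UMI. Of the Krt18 UMIs, 15.7% came from 1 cell. Markers of proximal luminal cells moved with this class: all 8 had UMIs in it and summed to 6365 CPM, against 1499 in basal-like and 12654 in proximal luminal-like cells. The 9 basal markers summed to 3183 CPM, against 9558 and 534. With the highest doublet scores removed, at the rate expected for the library, the class held 228 cells and 4 keratins were higher. With cells named one by one the class held 29 cells and the count was 1, since the log2 ratios of Krt6a and Krt7 were 0.73 and 1.15, and under 3 other settings no cluster was named as this class.

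Krt6a, Krt16 and Krt17 are the keratins of wounded or fast-growing epithelia, and Krt6a and Krt16 were found almost only in the proximal library. Krt6a, of type II, had 2 UMIs in ventral basal-like cells, 1 in proximal luminal-like and 0 in secretory luminal-like cells. In the proximal library its level was highest in periurethral-type (basal) cells, at 286 CPM (271 to 302). Proximal luminal-like cells followed with 77.8 CPM (74.2 to 81.5), periurethral-type (luminal) cells with 67.0 CPM (60.2 to 74.4) and basal-like cells with 22.8 CPM (19.6 to 26.4). Secretory luminal-like cells had 2.49 CPM (1.99 to 3.08) and macrophage-like cells 3.05 CPM (0.629 to 8.91). Krt6b, whose sequence is close to that of Krt6a, had 16 UMIs in kept cells of the proximal library, and how reads shared by such copies were counted is not given in the sources used here.

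Krt16, of type I, had 1 UMI in the ventral basal-like cells, where 109.7 CPM (103 to 117) were measured in proximal basal-like cells and 99.3 CPM (90.4 to 109) in periurethral-type (basal) cells. It was unevenly spread over cells, with a UMI in 15.2% and 13.3% of them and 1.27% of macrophage-like cells, and 1 cell gave 12.5% and 26.4% of the UMIs. In proximal luminal-like cells, where Krt6a was higher than in basal-like cells, Krt16 stood at 5.96 CPM (4.99 to 7.05), of which 1 cell gave 49.3%. Krt16 UMIs per Krt6a UMI ran from 4.81 (4.09 to 5.67) in basal-like to 0.347 (0.311 to 0.387) in periurethral-type (basal) and 0.0765 (0.0637 to 0.0913) in proximal luminal-like cells, so the 2 genes did not follow each other over the classes.

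The 2 basal-like clusters of the proximal library differed in this set. The cluster of 443 cells had 153 CPM (143 to 164) of Krt16, and that of 242 cells had 6.73 CPM (3.85 to 10.9). Krt14 was 1583 CPM (1550 to 1616) and 726 CPM (692 to 761), and Krt17 603 CPM (583 to 624) and 298 CPM (277 to 321). Krt5 went slightly the other way, with 479.7 CPM (462 to 498) and 599.8 CPM (569 to 632). Among the 4 proximal luminal-like clusters Krt23 ran from 42.7 to 503 CPM, Krt8 from 1562 to 6825, Krt15 from 349 to 1369.8 and Krt6a from 3.13 to 98.4. Clusters were formed from other genes of the same cells, so these are descriptions.

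**Figure D4:**
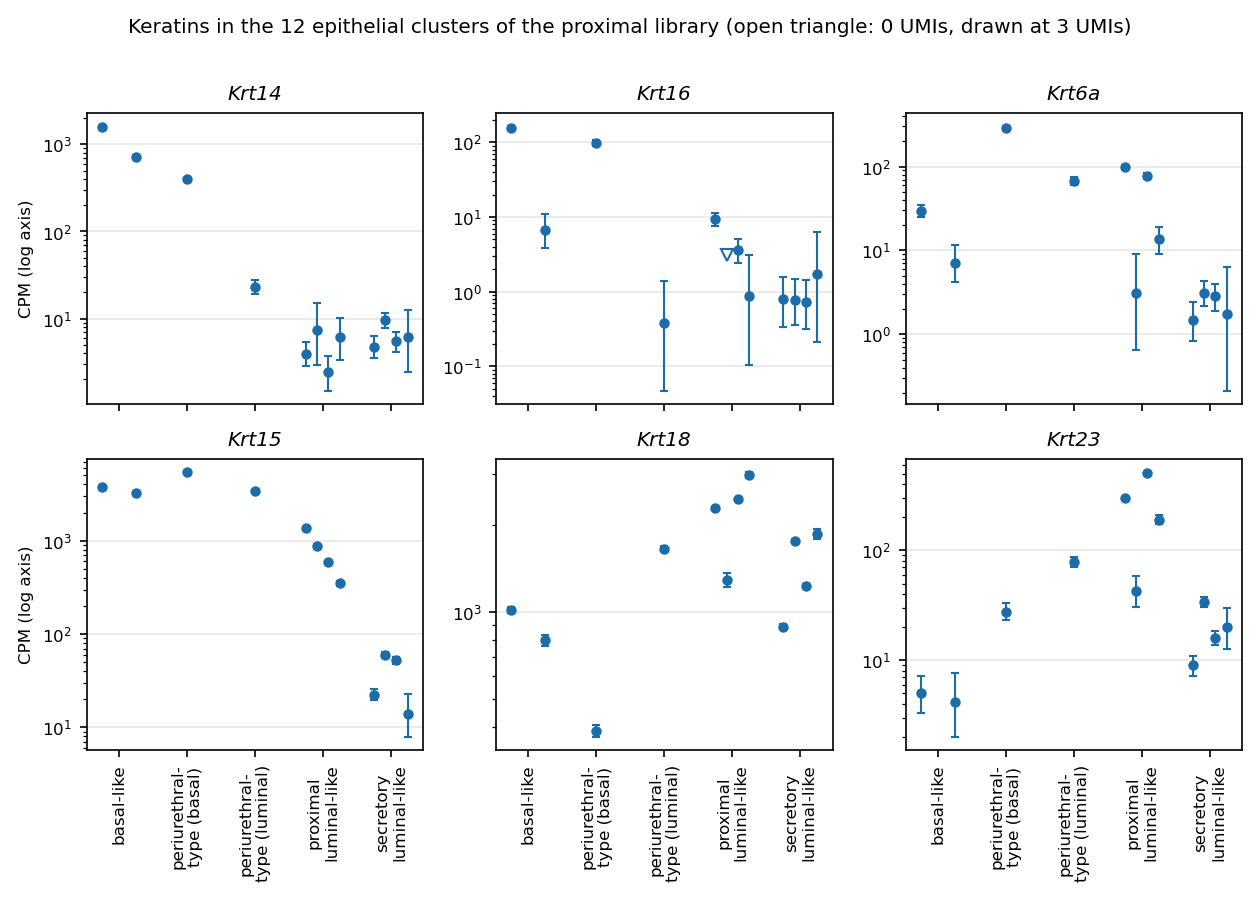
Levels of 6 keratins in CPM on a log axis in each of the 12 epithelial clusters of the proximal library, by class, with exact 95% counting intervals. Krt16 differs between the 2 basal-like clusters (153 and 6.73 CPM), and Krt18 is lowest in the periurethral-type (basal) cluster (389 CPM).

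The textbook pairs were compared in single cells and as sums. In ventral basal-like cells Krt14 was found in 54.4% (45.3 to 63.3) of the 125 cells with Krt5, and Krt5 in 94.4% (86.4 to 98.5) of the 72 cells with Krt14. In proximal basal-like cells the shares were 89.4% (86.7 to 91.7) and 93.6% (91.3 to 95.4). In periurethral-type (basal) cells they were 38.9% (32.5 to 45.6) and 95.7% (89.2 to 98.8). The other basal type I keratin, Krt15, was found in 99.2% (95.6 to 100), 99.5% (98.6 to 99.9) and 100% (98.4 to 100) of cells with Krt5 in these classes. Depth enters these shares: at 1000 UMIs a cell, Krt14 was found in 27.1% (17.2 to 39.1), 57.9% (51.4 to 64.1) and 19.8% (13.0 to 28.3) of cells with Krt5. In reverse, Krt5 was found in 59.4% (40.6 to 76.3), 38.4% (33.3 to 43.6) and 51.1% (35.8 to 66.3) of cells with Krt14, so the higher of the 2 shares in proximal basal-like cells turned with depth.

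Summed over cells, there were 2.57 (2.48 to 2.67) Krt14 UMIs for each Krt5 UMI in proximal basal-like cells, but 0.480 (0.454 to 0.508) in periurethral-type (basal) cells of the same library and 0.554 (0.482 to 0.636) in ventral basal-like cells. The order of the 2 partners was thus opposite within the proximal library. Krt15 exceeded Krt5 in all 3, with 3.55 (3.24 to 3.90) UMIs per Krt5 UMI in ventral basal-like, 7.02 (6.79 to 7.25) in proximal basal-like and 6.52 (6.30 to 6.75) in periurethral-type (basal) cells.

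For Krt8 and Krt18 the balance turned between classes. Secretory luminal-like cells had 1.91 (1.87 to 1.95) (ventral) and 1.95 (1.92 to 1.98) (proximal) Krt18 UMIs for each Krt8 UMI. Basal-like cells had 1.22 (1.08 to 1.39) and 1.16 (1.12 to 1.19). Proximal luminal-like cells had 1.13 (1.04 to 1.22) in the ventral but 0.398 (0.394 to 0.402) in the proximal library. The periurethral-type luminal cluster had 0.512 (0.499 to 0.525) and the basal one 0.214 (0.203 to 0.226), the lowest of the 8. Unthinned, Krt18 was found in 99.9% (99.5 to 100) (ventral) and 99.5% (98.6 to 99.9) (proximal) of secretory luminal-like cells with Krt8 (median 27106 and 51896 UMIs) and in 65.4% (58.7 to 71.7) of such periurethral-type (basal) cells (median 15828). At 1000 UMIs a cell the shares were 52.0% (47.3 to 56.6), 70.5% (65.0 to 75.7) and 23.6% (16.4 to 32.1), against 47.0%, 69.0% and 7.69% of cells without Krt8. At that depth Krt8 was found in 76.3% (59.8 to 88.6) of periurethral-type (basal) cells with Krt18.

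Krt7 and Krt19, the type II and type I keratins of ducts, stood at 175 (143 to 218) Krt19 UMIs for each Krt7 UMI in ventral and 26.1 (24.4 to 28.0) in proximal secretory luminal-like cells. In the other classes the values lay between 0.882 (0.703 to 1.11) in ventral basal-like and 4.39 (4.31 to 4.46) in proximal luminal-like cells of the proximal library. Krt19 was thus present in secretory luminal-like cells with little Krt7 beside it. Krt13 UMIs per Krt4 UMI were 0.125 (0.104 to 0.148) in periurethral-type (basal), 0.0114 (0.00808 to 0.0156) in periurethral-type (luminal) and 0.0150 (0.0120 to 0.0185) in proximal luminal-like cells, so the mRNA of Krt4 far exceeded that of its type I partner in all 3.

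UMIs of Krt5 and Krt8, the stains for the 2 layers, were found in the same cells. Of the basal-like cells with Krt5, 92% (85.8 to 96.1) also had Krt8 in the ventral library, 97.3% (95.7 to 98.4) in the proximal library, and 89.8% (85.1 to 93.4) of the periurethral-type (basal) cells with Krt5 did. At 1000 UMIs a cell the shares were 27.1% (17.2 to 39.1), 41.7% (35.5 to 48.2) and 48.3% (38.9 to 57.7). Cells of the same classes without a Krt5 UMI at that depth had Krt8 in 32.4%, 47.0% and 54.0%. The order of cells with and without Krt5 turned with depth in both basal-like classes: at 2000 UMIs Krt8 was found in 69.4% (59.3 to 78.3) and 66.2% (61.3 to 70.8) of cells with Krt5, against 65% and 64.8% without. In periurethral-type (basal) cells the share with Krt5 was the lower one at every depth, at 51.2% (43.4 to 58.8) against 70.6% at 2000 UMIs and 89.8% against 100% (14 cells without Krt5) unthinned. In the other direction, Krt5 was found at 1000 UMIs in 0.138% (0.00348 to 0.764) of proximal luminal-like and 0.342% (0.00867 to 1.89) of secretory luminal-like cells with Krt8 in the proximal library. The Krt8 of non-epithelial cells, given above, is the background for these shares. Each depth was a single random draw, in which 42 of 141 ventral basal-like cells had Krt8 at 1000 UMIs and 94 of 138 at 2000.

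**Figure D5:**
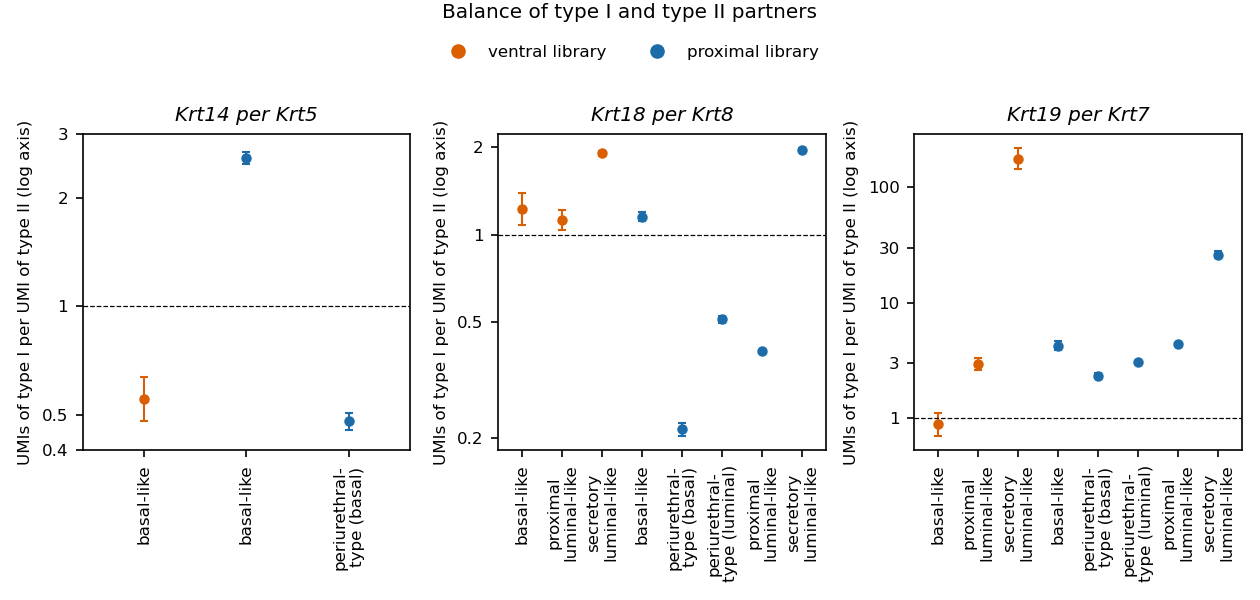
UMIs of the type I partner for each UMI of the type II partner, on log axes, with exact 95% intervals (ventral library orange, proximal library blue) and a dashed line at 1. Of the 3 classes shown for Krt14 and Krt5, the basal-like cells of the proximal library alone lie above 1 (2.57), and Krt18 per Krt8 is lowest in periurethral-type (basal) cells (0.214).

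Cells of the same class name were also compared between libraries, where region and kit cannot be told apart. The keratins past the limit were most in proximal luminal-like cells, and their share in basal-like cells was near that of all genes. In basal-like cells 1 of 16 tested keratins was higher by 4-fold or more in the proximal library (Krt16), against 4.16% of all genes, and 0 were lower, against 0.601%. The Krt16 call rested on 1 of the 2 proximal basal-like clusters, at 153 CPM. The other had 6.73 CPM, beside 1.36 in ventral basal-like cells, which is under the limit. Under that limit, Krt14 was 3.02-fold (2.70 to 3.38) higher in the proximal library, Krt5 1.54-fold (1.41 to 1.68) lower and Krt7 2.91-fold (2.44 to 3.45) lower. In proximal luminal-like cells 5 of 26 were higher (Krt6a, Krt8, Krt15, Krt23 and Krt80), against 2.56%, and 0 were lower, against 0.86%. Krt8 was 5.95-fold (5.61 to 6.32) higher, Krt23 7.48-fold (5.71 to 10.0) higher and Krt15 5.30-fold (4.62 to 6.12) higher, while Krt4 was 1.21-fold (1.09 to 1.35) lower. Without the 23 ventral cells that held over 5% Sbp and Spink1, Krt15 was under the limit at a log2 ratio of 1.63. In secretory luminal-like cells 2 of 18 were higher in the proximal library (Krt7, which was under the limit in 6 of the alternative settings, and Krt15), against 1.26%, and 0 were lower, against 0.0326%. Macrophage-like cells of that library had 15.2 CPM (8.53 to 25.1) of Krt7 and 28.4 CPM (18.9 to 41.1) of Krt15, beside 24.7 and 44.5 in the secretory luminal-like cells. Endothelial-like cells had 71.8 CPM (54.5 to 92.8) and 65.6 CPM (49.1 to 85.8) of the same genes, and fibroblast-like cells 33.9 CPM (29.1 to 39.1) and 125 CPM (116 to 135). Both classes lay above the secretory luminal-like cells, so those levels are within the background. With 5% of free RNA subtracted, neither passed the limit, and the log2 ratio of Krt15 was -0.52 against 2.36. Neither passed with the highest doublet scores removed, at log2 ratios of 1.94 for Krt15 and 1.45 for Krt7. The median log2 ratio of tested keratins was 0.53, 0.81 and 0.68 in the 3 classes, against 0.19, 0.09 and 0.33 over all genes.

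The other described keratins were low. Krt10, the type I keratin of the upper epidermis, lay between 7.60 and 20.4 CPM in all 8 class and library combinations and reached 27.2 CPM (23.0 to 32.0) in fibroblast-like cells, so it set no epithelial class apart. Its epidermal partner Krt1 reached at most 9.03 CPM (6.48 to 12.3), in periurethral-type (basal) cells. Krt13 was highest in the same class, at 32.8 CPM (27.8 to 38.5), of which 1 cell gave 28.9%. Krt75, a hair follicle keratin of type II, had 0 UMIs in the 3 ventral classes and 13.0 CPM (9.89 to 16.8) in periurethral-type (basal) cells, 47.5% of them from 1 cell. Krt78 reached 15.4 CPM (12.2 to 19.2) in periurethral-type (luminal) and 13.4 CPM (11.9 to 14.98) in proximal luminal-like cells of the proximal library, and Krt88 8.89 CPM (7.70 to 10.2) in the latter. Krt79 and Krt86 stayed at or below 3.82 CPM in every epithelial class.

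Genes that anchor keratin filaments were listed beside the keratins: 12 of the desmosome (cell to cell), 6 of the hemidesmosome (cell to basement membrane), 7 of the cornified envelope and its plakins, and 5 other intermediate filament and lamin genes. Of the hemidesmosome list, 5 of 6 tested were at least 4-fold higher in ventral basal-like than secretory luminal-like cells and 3 of 6 in proximal ones, against 5.52% and 4.42% of all genes tested. The median log2 ratios of the list were 2.36 and 2.38, against 0.35 and 0.08 over all genes. Col17a1, a transmembrane collagen of the hemidesmosome, was 244-fold (105 to 655) and 178-fold (125 to 263) higher, the largest ratio of the list in both libraries, followed in size by Itgb4 in the ventral library at 8.92-fold (6.13 to 12.7) and Dst in the proximal library at 13.7-fold (13.1 to 14.4). Of the desmosome list, 4 of 8 tested were higher in ventral and 2 of 10 in proximal basal-like cells (median log2 ratios 1.64 and 1.03), among them Pkp1, a desmosomal plaque protein, at 168-fold (97.2 to 304) and 79.1-fold (49.3 to 135). No gene of the 4 lists was 4-fold lower in basal-like than in secretory luminal-like cells, where 1.37% (ventral) and 1.93% (proximal) of all genes tested were. That is near those shares. Proximal luminal-like cells shared part of the higher genes. Over secretory luminal-like cells, 1 of 5 tested hemidesmosome genes passed in the ventral library (Itgb4) and 2 of 6 in the proximal one (Dst and Itgb4). The desmosome list gave 0 of 7 and 2 of 9 (Dsp and Jup), against 2.92% and 3.18% of all genes tested. Median log2 ratios of the hemidesmosome list were 1.18 and 1.55, against 0.51 and 0.05 over all genes. Between basal-like and proximal luminal-like cells of the proximal library, Pkp1 and Col17a1 were higher and Pkp2 and Sprr1a lower in basal-like cells.

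In periurethral-type (basal) cells 1 of 10 tested desmosome genes was at least 4-fold higher than in basal-like cells, and 2 of 6 cornified envelope genes, against 1.01% of all genes. The desmosome gene was Dsg3, the desmoglein of stratified epithelia, with 232 UMIs against 2. Those of the cornified envelope were Ivl (involucrin, also among the genes that led this cluster), 162-fold (96.2 to 297) higher at 284 CPM, and Sprr1a, 8.29-fold (7.83 to 8.78) higher. None of the 6 hemidesmosome genes passed in either direction, where 0.673% of all genes were lower. Median log2 ratios were 0.98 for the desmosome, 0.99 for the cornified envelope and 0.08 for the hemidesmosome list, against -0.11 over all genes. In periurethral-type (luminal) cells 1 of 6 tested cornified envelope genes was 4-fold above proximal luminal-like cells, against 0.0969% of all genes. It was Ivl, which was 8.82-fold (7.33 to 10.6) higher. None of the 8 desmosome, 6 hemidesmosome and 4 other filament genes tested passed.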

How the data were processed

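Single-cell mRNA was counted in 2 libraries of wild-type mouse prostate, 1 per region. The deposited matrices are tables of unnormalized UMI counts, made by the authors with Cell Ranger 7.0.0, per the file headers, on mm10, per the submitters' processing notes; how barcodes were called as cells is not given in the sources used here. Groups were the library's region, as labelled.

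Barcodes with at least 500 genes and at most 10% mitochondrial UMIs were kept, and doublets called by Scrublet (expected rate 0.8% per 1000 cells) removed. It marked 0.351% and 0.108% of cells, which means that it has not worked. Counts were scaled to 10000 UMIs per cell, and each library was clustered alone in scanpy 1.11.5 (Python 3.11.15; 2000 variable genes without keratins and their partner genes, 30 components, 15 neighbours, Leiden resolution 1, seed 0). The class whose markers exceeded their level in other clusters the most, on average, gave a cluster its name, with at least 3 of them in 25% of its cells. It stayed unnamed when another class had more markers than its own among the 10 leading genes, or when its UMIs were low and none of its own led. Periurethral-type clusters needed 1 leading marker and 4 markers found. Parts of this naming rule were set after the clusters had been looked at.

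UMIs were summed per class. Intervals are exact Poisson (levels), conditional binomial (ratios) and Clopper-Pearson (shares), at 95%, from scipy 1.17.1; a count of 0 allows 3 UMIs. Shares were also computed after thinning to 1000 UMIs a cell, leaving out shallower cells. A gene was tested for size with at least 20 UMIs in the classes compared and called at 4-fold in CPM + 5. No p-value was computed, since each region has 1 library. The scripts were tested on simulated data. Keratins with at least 100 UMIs in a library, or at least 50 CPM in a class, were described with values, and up to 3 partner genes per comparison. Members and lists were chosen with earlier results of these data known. Promoter windows came from RefSeq (GRCm38.p6) by symbol, and only those at the outer end of the gene were printed. Protein sequences were not used here.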

Additional observations from a re-analysis of the deposited data

Results flagged for a closer look

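Clusters outside the 4 epithelial classes held keratin mRNA above the upper counting bound of the macrophage-, T or NK-, endothelial- and fibroblast-like cells. Seminal vesicle-like cells of the proximal library (26 cells) held 3732 CPM of Krt18, 3211 CPM of Krt8 and 1291 CPM of Krt19, each with a UMI in at least 25 of the cells, beside 2.10 CPM of Krt5 and of Krt14. These are the simple-epithelial keratins, without Krt7 (9.46 CPM) or Krt4 (1.05 CPM). Smooth muscle-like cells (6 cells) held basal keratins: 2909.7 CPM of Krt15, 955 CPM of Krt17, 686 CPM of Krt14, 597 CPM of Krt5 and 194 CPM of Krt75. For Krt5, Krt14, Krt15 and Krt17 the UMIs came from 2 of the 6 cells, and all 13 UMIs of Krt75 from 1 cell. The part of doublets or of another cell type in these 6 cells was not tested.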

How the results depend on the processing

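No paired analysis was possible because each region has 1 library, and for the same reason no replicate could be left out. Of 322 counts of keratins past the fold recomputed under the alternatives, 278 stayed within 1.5 times their main value. The others are given here as the alternative count for the main count. Shares of all genes under the alternatives were not recorded. With a 2-fold limit, counts of higher keratins were 7 for 4 (proximal over secretory luminal-like, ventral), 8 for 5 (basal over secretory luminal-like, proximal), 5 for 0 (periurethral-type (luminal) over proximal luminal-like), 10 for 3 (periurethral-type (basal) over basal-like), and between libraries 3 for 1 (basal-like), 11 for 5 (proximal luminal-like) and 4 for 2 (secretory luminal-like). Counts of lower keratins were 1 for 0 (basal against secretory luminal-like, proximal), 10 for 6 (basal against proximal luminal-like, proximal), 3 for 1 and 3 for 0 (periurethral-type luminal and basal), and 1 for 0 (both basal-like and proximal luminal-like cells between libraries). With a pseudocount of 1 CPM, the count of higher keratins was 2 for 0 and the lower 2 for 1 in periurethral-type (luminal), 7 for 3 in periurethral-type (basal), and 3 for 1, 10 for 5 and 5 for 2 between libraries.

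Higher keratins in secretory luminal-like cells between libraries numbered 0 for 2 with 5% free RNA subtracted and with high doublet scores removed, and 1 for 2 at resolution 0.5, with at least 1000 genes, with at most 5% mitochondrial UMIs and with cells named one by one. Between basal-like cells of the libraries they numbered 2 for 1 at resolution 2 and with at least 1000 genes, and 3 for 1 with cells named one by one. Basal over secretory luminal-like counts in the proximal library were 8 for 5 at resolution 2 and with cells named one by one, and 1 for 0 lower with free RNA subtracted. Basal below proximal luminal-like counts in the ventral library were 1 for 3 with cells named one by one. Periurethral-type (luminal) counts were, for 0 higher, 1 (free RNA subtracted, cells named one by one, or unnamed clusters joined, the last chosen after seeing the data), 3 (resolution 2), 4 (1000 genes) and 7 (5% mitochondrial UMIs), and for 1 lower, 3 (5% mitochondrial UMIs) and 0 (cells named one by one, unnamed clusters joined). Periurethral-type (basal) counts were, for 3 higher, 5 with free RNA subtracted and 1 with cells named one by one, and for 0 lower, 3 with the latter. The class was not found at resolution 2, 1000 genes or 5% mitochondrial UMIs, nor the luminal one at resolution 0.5, so these give no value.

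Of 653 log2 ratios, 488 lay outside the counting interval of their ratio and 1 changed sign. The latter was Krt15 in secretory luminal-like cells between libraries, at -0.52 with free RNA subtracted, against 2.36. The log2 ratios include the pseudocount, while the counting intervals are of CPM ratios without it. A log2 ratio can thus lie outside the interval without having moved. The 488 therefore does not measure movement beyond counting error. Of 84 type II shares 37 moved, and of 336 shares of cells with a UMI, taken at 2000 UMIs or unthinned, 206 moved. The ventral basal-like and proximal luminal-like classes held 142 and 82 cells, which limits their precision. The causes were not tested.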
